A study of Homo sapiens with 18 samples.

Results

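Small nucleolar RNA (snoRNA) host genes are spliced genes whose introns carry the RNAs that guide chemical modification of ribosomal RNA. The genes described here were all those named SNHG followed by digits, together with GAS5, ZFAS1 and EPB41L4A-AS1. They came to 31 of the 59251 genes in the count tables. RNA was sequenced from HAP1, a human cell line of leukaemic origin that carries close to a single set of chromosomes and grows attached to the dish. The study asked how gene expression changes when SARS2, the seryl-tRNA synthetase of mitochondria, is depleted. There were 6 groups of 3 libraries each. The unmodified parental line was cultured with doxycycline at 15 ng/mL or without it. The labels do not say for how long it went without. In the second line, called the deleted line here, SARS2 was deleted (delSARS2) and a FLAG-tagged SARS2 transgene (SARS2-1xFLAG) was present. The 4 groups of the deleted line were cells kept on doxycycline at 15 ng/mL and cells without the drug for 3, 6 and 9 days. Doxycycline thus differs between the groups of both lines, and the transgene is present in the deleted line only. The sources used here do not say whether the deleted line is a single clone or which promoter drives the transgene.

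As background, most snoRNAs are cut out of introns after splicing, and the joined exons of the host are left as a by-product or as a noncoding RNA with its own uses. Many of these spliced RNAs reach the cytoplasm, are read by ribosomes over short frames, and are then broken down by nonsense-mediated decay (NMD), the pathway that removes RNAs on which a ribosome stops early. Several begin with a 5′ terminal oligopyrimidine (TOP) tract, a C followed by a run of C and T that is also found on messenger RNAs of ribosomal proteins and through which growth signals set their translation and stability. GAS5 is the best known example. Its RNA was found through its rise in growth-arrested cells.

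Library totals ran from 66850705 to 111123481 counts, of which the host genes took 0.106% to 0.21%. The test was edgeR's quasi-likelihood test over 21615 genes with sufficient counts, and a gene is said to be higher or lower, or to have changed, where its Benjamini-Hochberg adjusted p was under 0.05. Levels are CPM, counts scaled to library size, and levels compared between genes are RPKM, which is CPM per kilobase of exon. Counts on SARS2, which cannot separate the transgene from RNA of the deleted locus, were 24.2 ± 0.923 CPM (SD, n = 3) with doxycycline and 31.6 ± 0.986, 24.7 ± 1.3 and 41.8 ± 7.16 CPM at days 3, 6 and 9 in the deleted line. They did not fall in the libraries labelled day 3, day 6 and day 9, so those labels are used here without a check at the RNA level. Of 12 markers of blood cells, 8, among them PTPRC, MPO, SPI1 and GATA1, had at most 10 counts in every library. No label says that replicates were separate cultures, so the p-values reflect library-to-library spread alone, which may be technical. In bulk RNA, a lower level can come from fewer cells with the RNA or from less RNA per cell, and these cannot be told apart.

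By the coordinates in the tables (GRCh38), 26 of the 31 host genes held at least 1 annotated snoRNA gene on their own strand, 146 in all. SNHG14, the long imprinted transcript of the Prader-Willi region on chromosome 15, held 84 of them and spans 595855 bases. GAS5 held 11, SNHG1 held 9, SNHG17 held 5 and SNHG12 held 4. The other 5 genes (SNHG10, SNHG20, SNHG21, SNHG22 and SNHG27) held none by this count. The count took only genes typed or named as snoRNAs and left out SCARNA genes, which make guide RNAs of the Cajal body. Of these, SCARNA13 and SCARNA17 overlap exons of SNHG10 and SNHG22 on the same strand. SCARNA genes within introns were not looked for, so any of these 5 genes may still hold a guide RNA. Gene spans had a median of 4950 bases, and 12 of the 146 snoRNA genes lay wholly or partly in exons of the host. All 31 were annotated as noncoding.

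The sequences around the RefSeq transcription start (GRCh38.p14) are shown for the 7 host genes that begin with a pyrimidine run, and for 3 abundant or rising genes that do not. Each run covers the 30 bases before the annotated start and the 20 from it, 5′ to 3′ on the gene's strand. Capitals mark the pyrimidine run, defined as a C at the annotated start followed by at least 4 bases that are C or T.
ZFAS1, chr20:49278612-49278661, plus strand: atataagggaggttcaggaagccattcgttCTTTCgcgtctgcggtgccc
SNHG5, chr6:85678714-85678763, minus strand: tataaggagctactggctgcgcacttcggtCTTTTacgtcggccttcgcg
SNHG19, chr16:2155339-2155388, minus strand: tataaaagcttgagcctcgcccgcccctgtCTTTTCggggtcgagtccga
SNHG32, chr6:31834886-31834935, plus strand: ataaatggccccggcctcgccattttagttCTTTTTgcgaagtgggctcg
SNHG12, chr1:28581854-28581903, minus strand: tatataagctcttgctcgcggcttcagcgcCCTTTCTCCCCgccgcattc
SNHG4, chr5:139274071-139274120, plus strand: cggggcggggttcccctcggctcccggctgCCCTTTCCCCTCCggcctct
SNHG18, chr5:9546170-9546219, plus strand: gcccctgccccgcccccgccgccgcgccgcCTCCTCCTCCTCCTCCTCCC
SNHG29, chr17:16438957-16439006, plus strand: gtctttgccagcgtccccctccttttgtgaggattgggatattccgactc
SNHG17, chr20:38435309-38435358, minus strand: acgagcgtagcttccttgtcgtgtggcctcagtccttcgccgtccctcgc
SNHG20, chr17:77088613-77088662, plus strand: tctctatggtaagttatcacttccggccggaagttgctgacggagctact

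A pyrimidine run at the annotated start was present in 7 of the 27 host genes with a RefSeq start entry, or 25.9%. It was present in 1104 of 27305 genes in the whole start table (4.04%) and in 42 of 64 cytosolic ribosomal protein genes (65.6%). SNHG6, SNHG9, SNHG15 and SNHG25 had no entry. The match depends on the annotated start to the base, and for SNHG12, ZFAS1, SNHG4, GAS5 and SNHG17 the RefSeq start lay 1110, 464, 349, 163 and 49 bases from the outermost start in the count tables. No match says only that these letters are not at that base.

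The host genes differed widely in level. SNHG29, which carries SNORD49A, SNORD49B and SNORD65, had the highest mean over all 18 libraries at 168 RPKM. It was followed by GAS5 at 140, SNHG1 at 123, SNHG6 at 110, SNHG19 at 92.1, ZFAS1 at 82.5, SNHG3 at 63.7, SNHG16 at 60.2 and SNHG8 at 58.3 RPKM. A step down came SNHG21 at 28.8, SNHG5 at 25.7 and SNHG32 at 22.3 RPKM. A further group of 14, from SNHG25 at 22.2 RPKM to SNHG18 at 2.74 RPKM, included EPB41L4A-AS1, the host of SNORA13, at 19.9 RPKM. At the low end, SNHG31, SNHG22 and SNHG28 had 0.216, 0.167 and 0.0672 RPKM and at most 70 counts in a library. SNHG14 and SNHG27 were listed at 0 counts in every library and were not tested. Exons of SNHG14 are shared to 73.7% with SNRPN, IPW and other genes on the same strand. EIF4A1, a translation factor that every cell uses and a coding snoRNA host, was listed at 0 too, so a 0 in these tables sets no limit on the level. Exons of SNHG28 are covered to 80% by genes on the opposite strand. The remaining 29 genes entered the test.

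**Figure D1:**
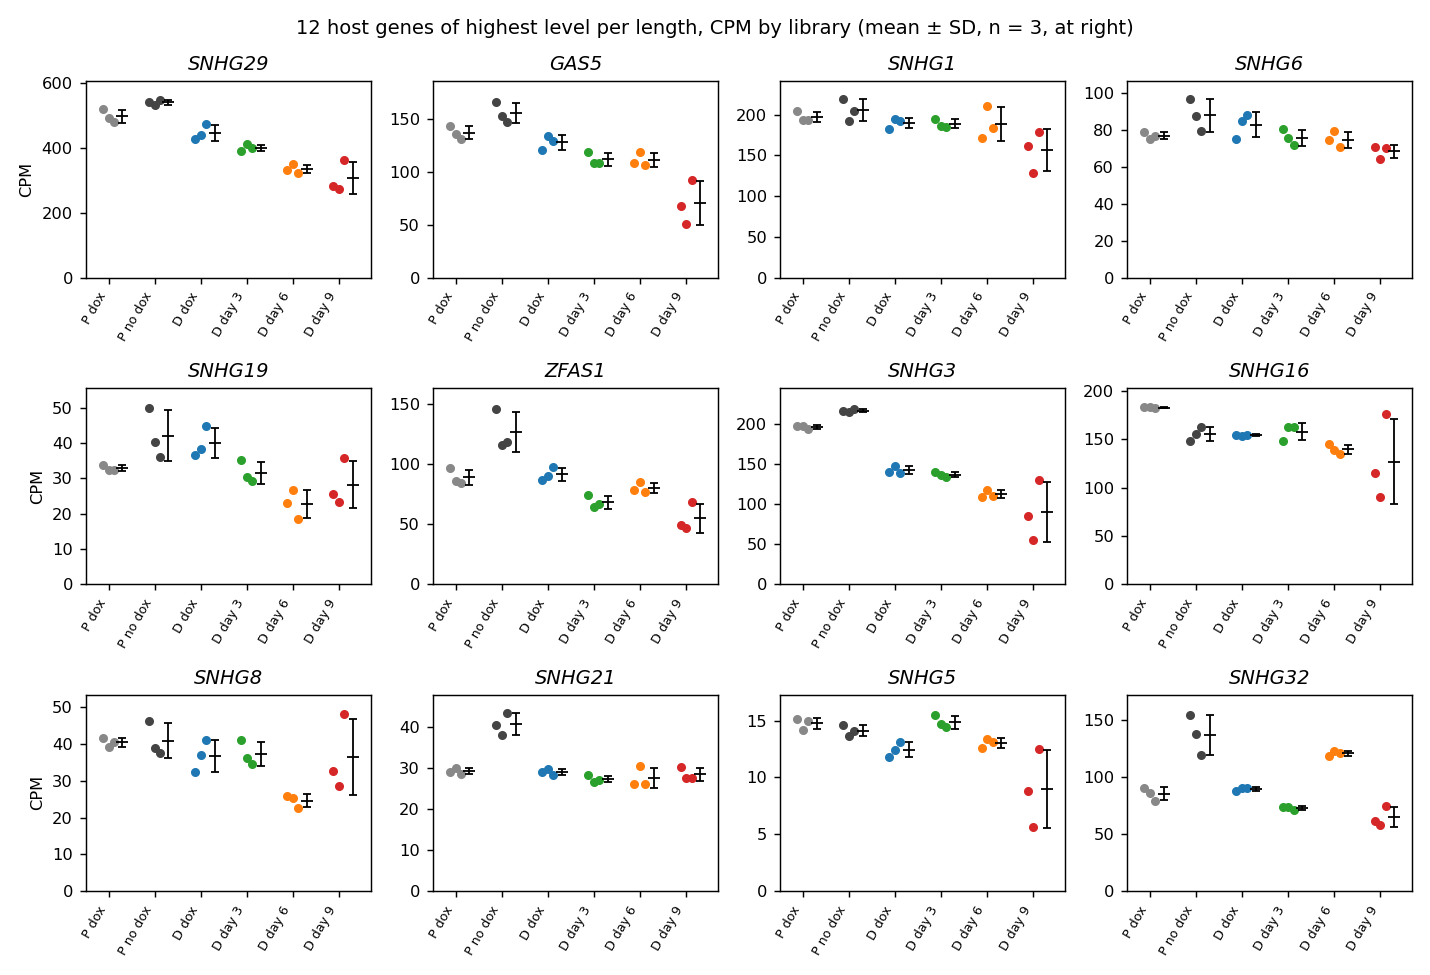
CPM of the 12 host genes with the highest RPKM, 1 panel per gene, with 1 point per library and the mean ± SD (n = 3) beside each group. P is the parental line and D the deleted line, with doxycycline (dox), without it (no dox) or without it for 3, 6 or 9 days. GAS5 runs from 50.6 to 92.2 CPM at day 9, below all 3 doxycycline libraries at 120 to 134.

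The largest response came at day 9, when the abundant host genes were lower. Against the deleted line on doxycycline, 12 of the 29 tested genes were lower and 6 were higher at day 9, against 23.8% lower and 22.6% higher among all genes tested. The median log2 fold change of the 29 was -0.28, against -0.01 over all genes. All 12 of the most abundant by RPKM had a point estimate below 0, and 9 of them were lower. Among the other 17 tested genes, 6 were higher and 3 were lower.

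GAS5, which carries 11 snoRNA genes including SNORD80, had 120, 134 and 129 CPM on doxycycline and 67.9, 50.6 and 92.2 CPM at day 9. Every day 9 library was below every doxycycline library, and the log2 fold change was -0.86 ± 0.13 (SE, adjusted p = 2.9e-05). ZFAS1, a gene antisense to ZNFX1 that carries 3 SNORD12 genes, had 86.5, 90.1 and 97.5 CPM on doxycycline and 49.4, 46.7 and 68.6 CPM at day 9. The groups did not overlap, and the log2 fold change was -0.73 ± 0.12 (adjusted p = 4.5e-05). SNHG29 had 427, 441 and 474 CPM on doxycycline and 284, 274 and 363 CPM at day 9. It too was separate between the groups, at -0.54 ± 0.08 (adjusted p = 1.8e-05). LRRC75A covers 18% of its exons on the opposite strand. SNHG3, the host of the ribosomal RNA processing snoRNAs SNORA73A and SNORA73B, had 140, 148 and 139 CPM on doxycycline and 85, 55.6 and 130 CPM at day 9. Its groups were separate but the third day 9 library came close to the doxycycline level, and the log2 fold change was -0.66 ± 0.17 (adjusted p = 0.0034).

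SNHG32, formerly C6orf48 and the host of SNORD48 and SNORD52, had 87.6, 90.6 and 90.3 CPM on doxycycline and 61.3, 58.2 and 74.9 CPM at day 9. It was lower by a log2 fold change of -0.47 ± 0.09 (adjusted p = 0.00029), with no overlap. SNHG6, the host of SNORD87, had 75.3, 85.3 and 88.5 CPM on doxycycline and 71, 64.3 and 70.3 CPM at day 9. The difference was small but the groups were separate, at -0.28 ± 0.08 (adjusted p = 0.0069). Exons of SNHG6 are covered to 50.5% by MCMDC2 on the opposite strand, and the sources used here do not give the strand setting of the counting. The counts of SNHG6, SNHG29 and the other overlapped genes named here are uncertain for that reason.

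For 3 abundant genes the call depended on single libraries. SNHG1, which carries SNORD22 and SNORD25 to SNORD31, had 183, 195 and 192 CPM on doxycycline and 162, 129 and 179 CPM at day 9. It was lower by -0.28 ± 0.09 (adjusted p = 0.018), but without day 9 replicate 2 the log2 fold change was -0.16 (adjusted p = 0.12) and without doxycycline replicate 2 it was -0.26 (adjusted p = 0.063). SNHG19, the host of SNORD60, had 36.7, 38.3 and 44.9 CPM on doxycycline and 25.6, 23.2 and 35.7 CPM at day 9, at -0.50 ± 0.15 (adjusted p = 0.01). Its call was lost without day 9 replicate 1 (adjusted p = 0.051), day 9 replicate 2 (0.058) or doxycycline replicate 3 (0.053). SNHG5, the host of SNORD50A and SNORD50B, had 11.8, 12.4 and 13.1 CPM on doxycycline and 8.8, 5.65 and 12.5 CPM at day 9. The groups overlapped, the log2 fold change was -0.47 ± 0.17 (adjusted p = 0.029), and the call was lost without any of 4 libraries, with adjusted p of 0.13 without day 9 replicate 2, 0.081 without doxycycline replicate 3, 0.075 without day 9 replicate 1 and 0.063 without doxycycline replicate 2.

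The remaining abundant genes did not pass the test at day 9. SNHG16, the host of the SNORD1 genes, had 155, 153 and 155 CPM on doxycycline and 115, 89.9 and 176 CPM at day 9, a log2 fold change of -0.28 ± 0.14 (adjusted p = 0.11). Its 3 day 9 libraries lay on both sides of the doxycycline group. Without day 9 replicate 3 the log2 fold change of SNHG16 was -0.59 (adjusted p = 8.4e-06). SNHG8, the host of SNORA24, had 32.4, 37.1 and 41 CPM on doxycycline and 32.6, 28.7 and 48.2 CPM at day 9, with a log2 fold change of -0.01 ± 0.14 (adjusted p = 0.96). SNHG21 had 28.9, 29.8 and 28.3 CPM on doxycycline and 30.2, 27.5 and 27.6 CPM at day 9, with a log2 fold change of -0.03 ± 0.07 (adjusted p = 0.78). EPB41L4A-AS1 had 23.3, 21.2 and 22.2 CPM and 20.6, 17.7 and 24.5 CPM, at -0.09 ± 0.12 (adjusted p = 0.6).

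Among the rarer genes, 3 were lower at day 9. SNHG18, the host of SNORD123, had 4.09, 4.23 and 3.6 CPM on doxycycline and 2.1, 2.75 and 0.979 CPM at day 9, with a log2 fold change of -1.03 ± 0.23 (adjusted p = 0.0011). It was lower in all 3 libraries and kept its call when any 1 library was left out. SNHG22 had 0.213, 0.332 and 0.442 CPM on doxycycline and 0.199, 0.126 and 0.109 CPM at day 9, from 11 to 39 counts per library over the 18. Its log2 fold change was -1.17 ± 0.39 (adjusted p = 0.021), and the call was lost without doxycycline replicate 3 (adjusted p = 0.095), day 9 replicate 3 (0.073) or day 9 replicate 2 (0.059). SNHG26, the host of SNORD93, was lower by -0.43 ± 0.17 (adjusted p = 0.046) with groups that overlapped. Its call was lost without any 1 of 5 libraries, with adjusted p of 0.23 without day 9 replicate 2, 0.11 without day 9 replicate 1 or doxycycline replicate 2, 0.086 without doxycycline replicate 1 and 0.075 without doxycycline replicate 3.

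The 6 genes that were higher at day 9 were all outside the 12 most abundant. SNHG9, a short gene that carries SNORA78, had 3.77, 3.93 and 5.2 CPM on doxycycline and 7.23, 7.98 and 6.68 CPM at day 9, with a log2 fold change of 0.77 ± 0.18 (adjusted p = 0.0015). SNHG17, which carries 4 SNORA71 genes, had 15, 14.3 and 14.8 CPM on doxycycline and 22.2, 17.2 and 27.8 CPM at day 9, with a log2 fold change of 0.61 ± 0.13 (adjusted p = 0.00096). SNHG11, which lies near it on chromosome 20 on the other strand and carries SNORA71E and SNORA60, had 7.33, 8.43 and 8.84 CPM on doxycycline and 12.4, 11.7 and 13 CPM at day 9, at 0.59 ± 0.14 (adjusted p = 0.0021). All 3 genes were separate between the groups. SNHG20 was higher by 0.80 ± 0.11 (adjusted p = 9.8e-06), SNHG10 by 0.33 ± 0.09 (adjusted p = 0.0061) and SNHG30, the host of SNORD7, by 0.32 ± 0.08 (adjusted p = 0.0015), again with no overlap. All 6 kept their calls when any 1 library was left out. Other genes share exon with 3 of them: SEC14L1 covers 22.5% of SNHG20 and SCARNA13 covers 14% of SNHG10 on the same strand, and LOC124904958 covers 30.7% of SNHG17 on the opposite strand.

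The 3 day 9 libraries did not move together. For 22 of the 29 tested genes replicate 2 was the lowest of them, and for 21 replicate 3 was the highest. Without day 9 replicate 2, 7 host genes were lower and 9 higher, and without doxycycline replicate 3, 8 were lower and 7 higher. In all, 13 of the 18 calls at day 9 remained under each of the alternatives tried.

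Of the 7 host genes with a pyrimidine run at the annotated start, 5 were lower at day 9 (SNHG18, ZFAS1, SNHG19, SNHG5 and SNHG32) and 0 were higher by edgeR (0 also with DESeq2 or at an unadjusted p under 0.05), with a median log2 fold change of -0.47, where 23.8% of all genes tested were lower. The calls for SNHG19 and SNHG5 were lost without single libraries, as given above. The other 2, SNHG12 and SNHG4, stood at 0.26 ± 0.21 (adjusted p = 0.34) and 0.10 ± 0.16 (adjusted p = 0.63). Of the 18 tested genes with another start, 6 were lower and 5 higher, with a median of -0.14. GAS5, named above as the best known TOP example, was counted in this set, at -0.86, since its annotated start did not hold the run. The sets follow the annotated base and need not separate genes with and without a TOP tract. Of the 4 without a start entry, SNHG6 was lower and SNHG9 higher. The difference between these sets was not tested.

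At day 6 a partly different set of host genes was lower. Against doxycycline, 8 were lower and 1 was higher, against 14.0% lower and 14.0% higher among all genes tested, and the median log2 fold change was -0.14 against 0.01. The split moved when trends of fold change with gene structure were removed. With a trend on exon length and gene span removed, 4 were lower and 2 higher, with a median of 0.08. With a trend on length and GC content removed, over the 18148 genes with a GC value, 4 were lower and 6 higher, with a median of 0.12. In each of these fits 11 of the 29 point estimates turned sign. Without day 6 replicate 2, day 6 replicate 3, doxycycline replicate 2 or doxycycline replicate 3, 5 were lower and 1 higher each time. The calls for SNHG29, SNHG19, SNHG9 and SNHG32 remained under each alternative.

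SNHG9 was among the most changed host genes at day 6, in the direction opposite to day 9. It had 2.11, 1.99 and 1.66 CPM at day 6, below the 3.77 to 5.2 CPM on doxycycline, with a log2 fold change of -1.16 ± 0.18 (adjusted p = 0.00015). SNHG19 had 23, 26.6 and 18.5 CPM at day 6, at -0.82 ± 0.15 (adjusted p = 0.00063). SNHG29 had 333, 350 and 324 CPM, at -0.41 ± 0.08 (adjusted p = 0.00078). All 3 were below the doxycycline libraries without overlap. SNHG32 was the gene that rose, to 118, 123 and 121 CPM, at 0.43 ± 0.09 (adjusted p = 0.0014).

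The other lower calls at day 6 were less firm. SNHG25, which carries SNORD104 and has only 111 bases of exon, had 1.95, 3.32 and 3.93 CPM on doxycycline and 1.35, 1.47 and 1.1 CPM at day 6, at -1.22 ± 0.41 (adjusted p = 0.032). Its call was lost without any 1 of 5 libraries: adjusted p was 0.14 without doxycycline replicate 3, 0.11 without day 6 replicate 3, 0.08 without doxycycline replicate 2, 0.065 without day 6 replicate 2 and 0.063 without day 6 replicate 1. SNHG8 had 26, 25.2 and 22.6 CPM at day 6, at -0.58 ± 0.14 (adjusted p = 0.0048), and was at -0.30 (adjusted p = 0.096) with the length and span trend removed and -0.23 (adjusted p = 0.09) with the length and GC trend removed. SNHG4, the host of SNORA74A, was at -0.44 ± 0.16 (adjusted p = 0.043), SNHG10 at -0.28 ± 0.09 (adjusted p = 0.03) and SNHG30 at -0.26 ± 0.08 (adjusted p = 0.016). Of the 6 fits that left out 1 library, SNHG4 passed only in the one without day 6 replicate 1 and SNHG10 only in the one without doxycycline replicate 3, with adjusted p up to 0.13 for both in the others. The SNHG30 call was lost without doxycycline replicate 3 (adjusted p = 0.088), and its fold change was 0.01 and 0.08 with either trend removed.

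GAS5 and ZFAS1, both lower at day 9, did not pass the test at day 6. GAS5 had 108, 119 and 106 CPM at day 6, at -0.20 ± 0.13 (adjusted p = 0.28), and ZFAS1 had 78.3, 85 and 77 CPM, at -0.19 ± 0.12 (adjusted p = 0.24). Both had every day 6 library below every doxycycline library. SNHG1 had 171, 211 and 184 CPM at -0.01 ± 0.09, SNHG6 had 74.6, 79.5 and 70.8 CPM at -0.15 ± 0.08, and SNHG3 had 109, 118 and 111 CPM at -0.34 ± 0.17, with adjusted p of 0.95, 0.17 and 0.15.

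For day 9 against day 6, within the deleted line, the counts were near the background of all genes. Here 9 of 29 were higher and 8 lower (31% and 27.6%), against 28.6% and 30.2% of all genes tested. SNHG9 rose most, by a log2 fold change of 1.93 ± 0.18 (adjusted p = 4.6e-08). SNHG20 at 0.72 ± 0.11, SNHG11 at 0.62 ± 0.14, SNHG10 at 0.60 ± 0.09, SNHG30 at 0.58 ± 0.08, SNHG8 at 0.57 ± 0.14, SNHG4 at 0.55 ± 0.16, SNHG17 at 0.54 ± 0.13 and SNHG15, the host of SNORA9, at 0.52 ± 0.11 were also higher. SNHG32 at -0.90 ± 0.09 (adjusted p = 8.1e-08), GAS5 at -0.66 ± 0.13, ZFAS1 at -0.54 ± 0.12, SNHG18 at -0.89 ± 0.23, SNHG5 at -0.53 ± 0.17, SNHG1 at -0.27 ± 0.09, SNHG22 at -1.11 ± 0.39 and SNHG31 at -1.13 ± 0.39 were lower. The split was 9 higher and 14 lower by library size alone, which moved the median of all genes to -0.15 from -0.02, and 5 higher with 14 or 15 lower with either trend removed. Without day 6 replicate 2, 5 were lower, and without day 9 replicate 3, 13 were lower. SNHG4 lost its call without day 9 replicate 3 (0.24, adjusted p = 0.074), SNHG1 without day 6 replicate 2 (adjusted p = 0.15) or day 9 replicate 2 (0.12), SNHG31 without day 9 replicate 1 (0.092) or day 6 replicate 2 (0.053), and SNHG22 without day 9 replicate 3 (0.075), day 9 replicate 2 (0.059) or day 6 replicate 2 (0.051). Of these 17 calls, 8 remained under each of the alternatives tried. They were SNHG9, SNHG20, SNHG10, SNHG30, SNHG32, GAS5, ZFAS1 and SNHG18. The day 6 and day 9 comparisons with doxycycline share their control libraries.

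At day 3 few host genes had changed. Against doxycycline, 2 were lower and 1 was higher, against 6.87% and 6.50% of all genes tested. An unadjusted p under 0.05 was found for 9 of the 29, and the share of all genes at that p was not counted. ZFAS1 had 74.3, 63.9 and 66.5 CPM at day 3, at -0.42 ± 0.12 (adjusted p = 0.023). SNHG32 had 73.5, 74 and 71.2 CPM, at -0.30 ± 0.09 (adjusted p = 0.035), and SNHG17 had 20.4, 19.9 and 21.6 CPM, at 0.49 ± 0.13 (adjusted p = 0.022). In each case the day 3 libraries did not overlap those with doxycycline. The SNHG32 call was nonetheless lost without any 1 of the 6 libraries (adjusted p up to 0.13). ZFAS1 passed only without day 3 replicate 1 (adjusted p up to 0.10 in the others), and SNHG17 only without day 3 replicate 1 or doxycycline replicate 3 (up to 0.09). With only the 6 libraries compared in the fit, 9 host genes were higher and 6 lower, against 16.5% and 16.9% of all genes in that fit. GAS5 had 119, 108 and 108 CPM at day 3 (-0.19 ± 0.13, adjusted p = 0.36) and SNHG29 had 391, 411 and 400 CPM (-0.16 ± 0.08, adjusted p = 0.19).

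**Figure D2:**
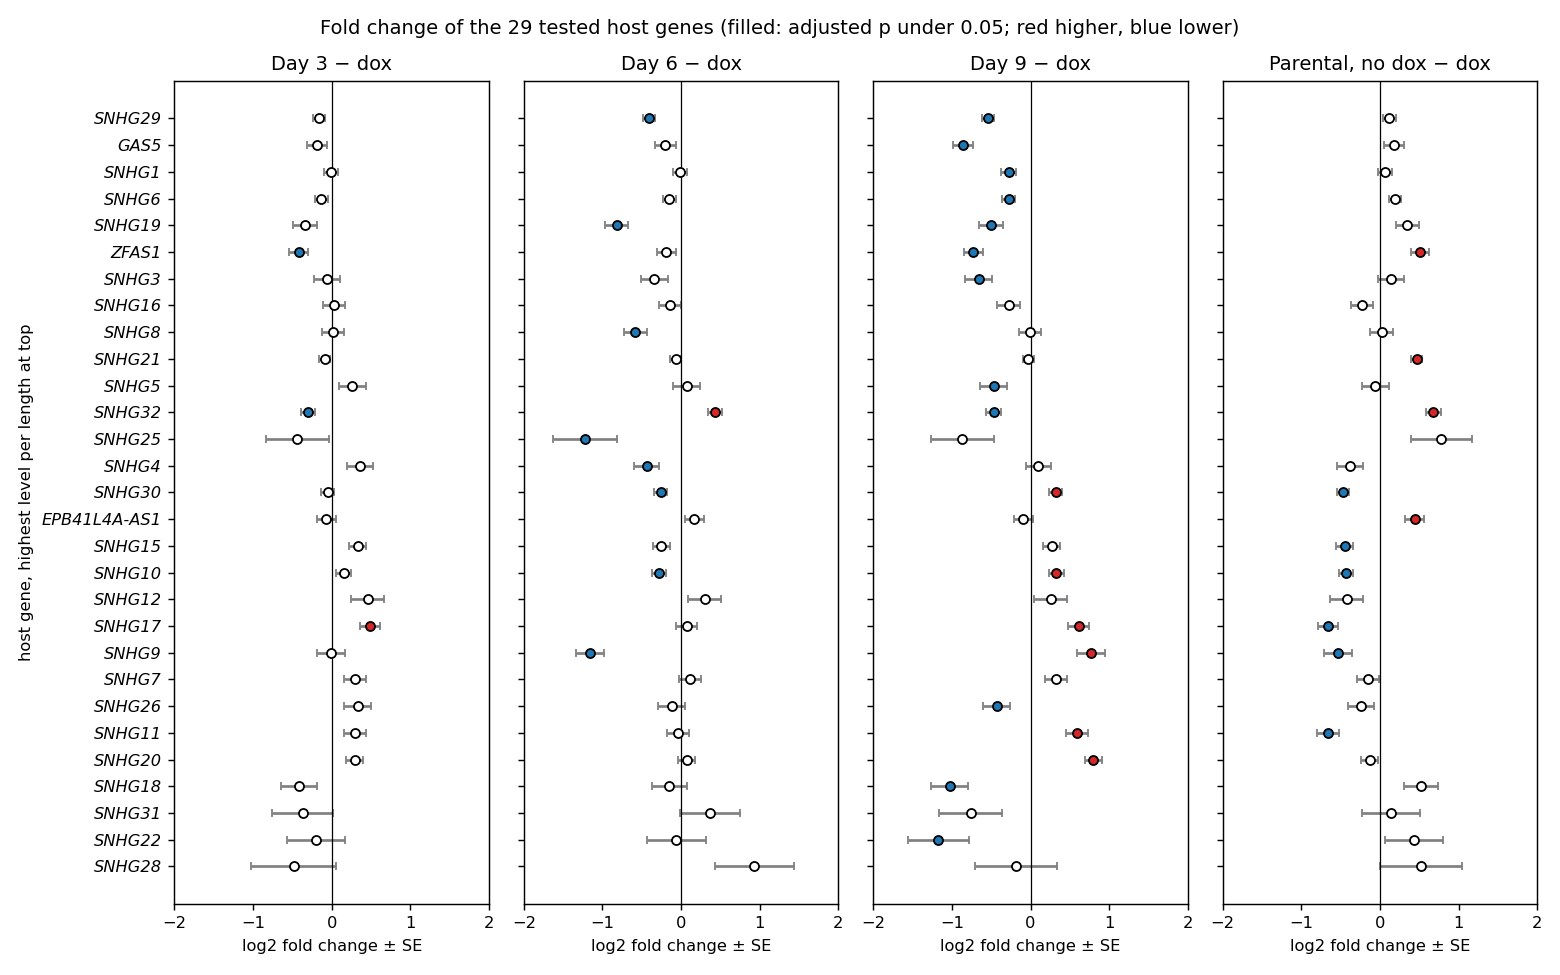
Log2 fold change ± SE of the 29 tested host genes, 1 row per gene in order of RPKM, for day 3, day 6 and day 9 against doxycycline in the deleted line and for the parental line without against with doxycycline. Filled points have an adjusted p under 0.05. At day 9 the upper rows lie left of 0 and the red points, 6 in number, are in the lower rows.

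In the parental line, which has no transgene, host genes also differed between cells without and with doxycycline, at shares near or below those of all genes. There 4 host genes were higher and 6 lower without the drug (13.8% and 20.7%), against 21.0% and 18.4% of all genes tested. The median log2 fold change was 0.06, against 0.03 over all genes. ZFAS1 had 96.3, 86.1 and 84.1 CPM with doxycycline and 146, 116 and 118 CPM without it, at 0.51 ± 0.12 (adjusted p = 0.0018). SNHG32 had 90.7, 86.4 and 79.1 CPM with it and 154, 138 and 119 CPM without it, at 0.68 ± 0.09 (adjusted p = 1.2e-05). SNHG21 had 29, 30.1 and 28.6 CPM with it and 40.4, 38.1 and 43.4 CPM without it, at 0.47 ± 0.07 (adjusted p = 6.1e-05). These 3 were separate between the groups and kept their calls under each alternative. Exons of SNHG21 are covered to 34.1% by FSD2 on the opposite strand. EPB41L4A-AS1 had 22.8, 22.7 and 22.5 CPM with doxycycline and 35.6, 33.7 and 23.3 CPM without it, at 0.44 ± 0.12 (adjusted p = 0.0074). Without replicate 1 of the libraries that lacked the drug, its log2 fold change was 0.31 (adjusted p = 0.071).

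Of the 6 lower genes in the parental line, 5 (SNHG17, SNHG11, SNHG30, SNHG10 and SNHG9) were among the 6 that were higher in the deleted line at day 9, or 83.3% of each set. Over all genes tested, 2134 were lower in the parental line and higher at day 9, which is 53.6% of the 3979 lower in the one and 43.8% of the 4877 higher in the other. The difference of these shares was not tested. SNHG17 had 17.1, 19.1 and 18.1 CPM with doxycycline and 10.1, 12.8 and 11.4 CPM without it, at -0.66 ± 0.13 (adjusted p = 0.00068). SNHG11 had 10.8, 9.68 and 8.57 CPM with it and 6.69, 7.09 and 4.59 CPM without it, at -0.66 ± 0.14 (adjusted p = 0.0012). SNHG30 was at -0.47 ± 0.08 (adjusted p = 7.6e-05), SNHG15 at -0.45 ± 0.11 (adjusted p = 0.0041) and SNHG10 at -0.43 ± 0.09 (adjusted p = 0.00095). SNHG9 had 4.25, 4.22 and 4.37 CPM with it and 3.57, 3.14 and 2.17 CPM without it, at -0.53 ± 0.18 (adjusted p = 0.024). All 6 were below the doxycycline libraries without overlap. The SNHG9 call was lost without replicate 3 of the libraries that lacked the drug (-0.35, adjusted p = 0.13) or without replicate 1, 2 or 3 of those with it (adjusted p = 0.052, 0.05 and 0.062). SNHG15 was at -0.30 (adjusted p = 0.053) with the length and span trend removed. Without replicate 3 of the libraries that lacked the drug, 7 host genes were higher. The split was 7 higher and 6 lower by library size alone, 8 and 4 with the length and span trend removed, and 9 and 5 with the length and GC trend removed.

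Of the 12 host genes highest by RPKM, the 3 already named (ZFAS1, SNHG21 and SNHG32) were higher in the parental line without doxycycline. The median of the 12 was 0.16, and 10 had a point estimate above 0. The others did not pass the test. SNHG29 had 521, 492 and 481 CPM with doxycycline and 542, 534 and 547 CPM without it, at 0.12 ± 0.08 (adjusted p = 0.25). GAS5 had 143, 136 and 131 CPM and 166, 153 and 147 CPM, at 0.18 ± 0.13 (adjusted p = 0.29). SNHG1 had 204, 194 and 193 CPM and 219, 192 and 205 CPM, at 0.06 ± 0.09 (adjusted p = 0.65). SNHG3 was at 0.14 ± 0.17 (adjusted p = 0.54), SNHG16 at -0.23 ± 0.14 (adjusted p = 0.2), SNHG6 at 0.19 ± 0.08 (adjusted p = 0.06) and SNHG19 at 0.35 ± 0.15 (adjusted p = 0.069). SNHG25, next in level, stood at 0.78 ± 0.39 (adjusted p = 0.12), with 4.57, 6.58 and 1.15 CPM without the drug.

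NEAT1, a long RNA kept in the nucleus, moved between the same groups. It had 3.94 ± 0.3 CPM with doxycycline and 14.6 ± 1.83 CPM without it in the parental line (SD, n = 3). In the deleted line it had 6.86 ± 0.313 CPM with doxycycline and 5.03 ± 0.638, 16.3 ± 2.84 and 2.9 ± 1.01 CPM at days 3, 6 and 9. The highest values were thus at day 6 and in drug-free parental cells, the same 2 groups in which SNHG32 was highest. The part of whatever moves NEAT1 in the host gene results was not tested.

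With doxycycline in both lines, 2 host genes were lower in the deleted line than in the parental line and 0 were higher by edgeR, against 9.97% and 9.32% of all genes tested. With DESeq2 5 were lower and 0 higher, against 11.8% and 10.5% of all genes. By edgeR 7 of the 29 had an unadjusted p under 0.05, and the share of all genes at that p was not counted. SNHG4 had 42.4, 44.4 and 44.1 CPM in the parental line and 28.7, 29.2 and 27.7 CPM in the deleted line, at -0.61 ± 0.16 (adjusted p = 0.0099). Its exons are shared to 16.3% with MATR3. SNHG7, the host of SNORA17A and SNORA17B, shares 28.7% of its exons with them and LOC124900276. It had 28.4, 24.9 and 26 CPM against 17, 18.9 and 22.2 CPM, at -0.45 ± 0.14 (adjusted p = 0.035), and lost its call without doxycycline replicate 1 (adjusted p = 0.16) or 2 (0.11) of the deleted line or replicate 1 (0.12), 2 (0.054) or 3 (0.076) of the parental line. SNHG3 had 198, 198 and 194 CPM against 140, 148 and 139 CPM, a separation without overlap at -0.46 ± 0.17 (adjusted p = 0.06). With only the 6 libraries compared in the fit, 12 host genes were lower and 1 higher, also with the replicate number as a block. Of all genes in that fit, 19.1% were lower and 18.1% higher, and 20.4% and 19.2% with the block.

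The change in the deleted line was set against the parental change with an interaction term. At day 9 the deleted line's change was more negative than the parental change for 13 host genes and more positive for 7, against 27.3% and 24.4% of all genes tested. ZFAS1 differed by -1.24 ± 0.17 (adjusted p = 4.3e-06), SNHG32 by -1.15 ± 0.13 (adjusted p = 4.8e-07) and GAS5 by -1.05 ± 0.19 (adjusted p = 0.00011). In the other direction, SNHG17 differed by 1.27 ± 0.19 (adjusted p = 1.6e-05) and SNHG11 by 1.25 ± 0.20 (adjusted p = 3.7e-05). Of these 20 differences, 16 remained under each alternative. The other 4 were SNHG1, SNHG25, EPB41L4A-AS1 and SNHG22. At day 6, 5 genes differed towards lower and 2 towards higher (7.14% and 5.49% of all genes), and at day 3, 7 and 8 (20.9% and 18.6%). With the length and span trend removed the day 3 split was 9 lower and 6 higher. Without replicate 1 of the parental libraries that lacked the drug it was 3 lower and 8 higher, and without day 3 replicate 3 it was 4 and 8. At day 6 it was 9 lower and 1 higher without replicate 3 of the parental libraries that lacked the drug, and 1 was higher in all but 3 of the fits that left out 1 library. The 3 differences share the parental libraries and the doxycycline libraries of the deleted line.

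Summed over the 31 host genes, the level was 1890, 1820 and 1790 CPM in the parental line with doxycycline and 2070, 1950 and 1920 CPM without it. In the deleted line it was 1590, 1660 and 1710 CPM with doxycycline, 1590, 1570 and 1550 CPM at day 3, 1430, 1510 and 1400 CPM at day 6, and 1230, 1060 and 1570 CPM at day 9. All 3 day 6 libraries and all 3 day 9 libraries lay below the 3 with doxycycline, and the third day 9 library was level with day 3. Abundant genes such as SNHG29 weigh most in this sum.

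Counts at the snoRNA genes inside the hosts followed another course. Summed over the 146 genes they came to 112, 112 and 108 CPM in the parental line with doxycycline and 74.6, 75.9 and 73.9 CPM without it. In the deleted line they were 86.9, 90.5 and 90.9 CPM with doxycycline, 110, 101 and 105 CPM at day 3, 80.7, 86 and 79.9 CPM at day 6, and 76.8, 57.5 and 99.9 CPM at day 9. The sum was thus lower without doxycycline in the parental line while the sum over the hosts was not. A snoRNA is short for a library of fragments read over 151 bases from both ends, and reads of finished snoRNA cannot be told apart from reads of unspliced host RNA.

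**Figure D3:**
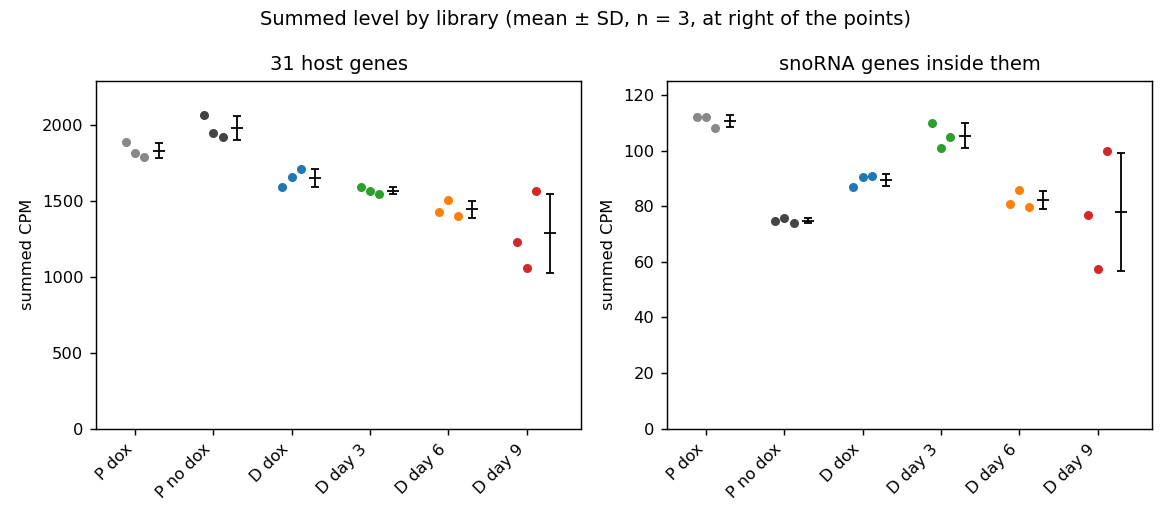
Summed CPM by library of the 31 host genes (left) and of the snoRNA genes inside them (right), with the mean ± SD (n = 3) beside the points of each group, labelled as in the plot of single genes. In the parental line the snoRNA sum is 108 to 112 CPM with doxycycline and 73.9 to 75.9 CPM without it, while the host sum is 1790 to 1890 and 1920 to 2070 CPM.

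Of the 53 snoRNA genes inside hosts that could be tested, 27 were lower and 0 higher by edgeR in the parental line without doxycycline, with a median log2 fold change of -0.68. Over all genes tested, 18.4% were lower and 21.0% higher. DESeq2 also called 0 higher, and 1 was higher at an unadjusted p under 0.05. Among 183 tested snoRNA genes inside protein-coding genes, 41 were lower and 5 higher, with a median of -0.39. SNORD80 in GAS5, the most abundant at a mean of 14.2 CPM, was at -0.47 ± 0.13 (adjusted p = 0.009). SNORD26 in SNHG1 was at -0.64 ± 0.16 (adjusted p = 0.0038) and SNORD104 in SNHG25 at -1.05 ± 0.37 (adjusted p = 0.031). LOC124900306, SNORD22 and SNORD31, all inside SNHG1, were at -0.26 ± 0.12, -0.03 ± 0.14 and 0.28 ± 0.13 and did not pass. The host's fold change was above the median of its own snoRNA genes in 18 of the 21 hosts with a tested snoRNA. ZFAS1 and SNHG32 were higher while a snoRNA gene inside each was lower: SNORD12 was at -0.94 ± 0.31 (adjusted p = 0.022) and SNORD52 at -0.96 ± 0.21 (adjusted p = 0.0014).

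At day 9, 5 of the 53 snoRNA genes were lower and 2 higher, with a median of 0.08. These were 9.43% and 3.77%, against 23.8% and 22.6% of all genes tested. The host's fold change was above the median of its snoRNA genes in 5 of 21 hosts at day 9, 2 at day 3, 10 at day 6 and 16 between the lines, and the difference between comparisons was not tested. SNORD80 was lower with GAS5, at -0.98 ± 0.14 (adjusted p = 1.1e-05), and SNORD26 with SNHG1, at -0.46 ± 0.16 (adjusted p = 0.025). The 3 SNORD12 genes in ZFAS1 ranged from -0.54 to 0.18 and none passed the test. SNORD7, inside the higher SNHG30, was at -2.16 ± 0.86 (adjusted p = 0.046) from at most 19 counts in a library. At day 3, 5 snoRNA genes were higher by edgeR (median 0.36), and at day 6, 2 were higher and 3 lower (median -0.16). Of all genes tested, 6.50% were higher at day 3, and 14.0% were higher and 14.0% lower at day 6. Between the lines on doxycycline, 6 snoRNA genes were lower in the deleted line (median -0.40), or 11.3%, against 9.97% of all genes.

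**Figure D4:**
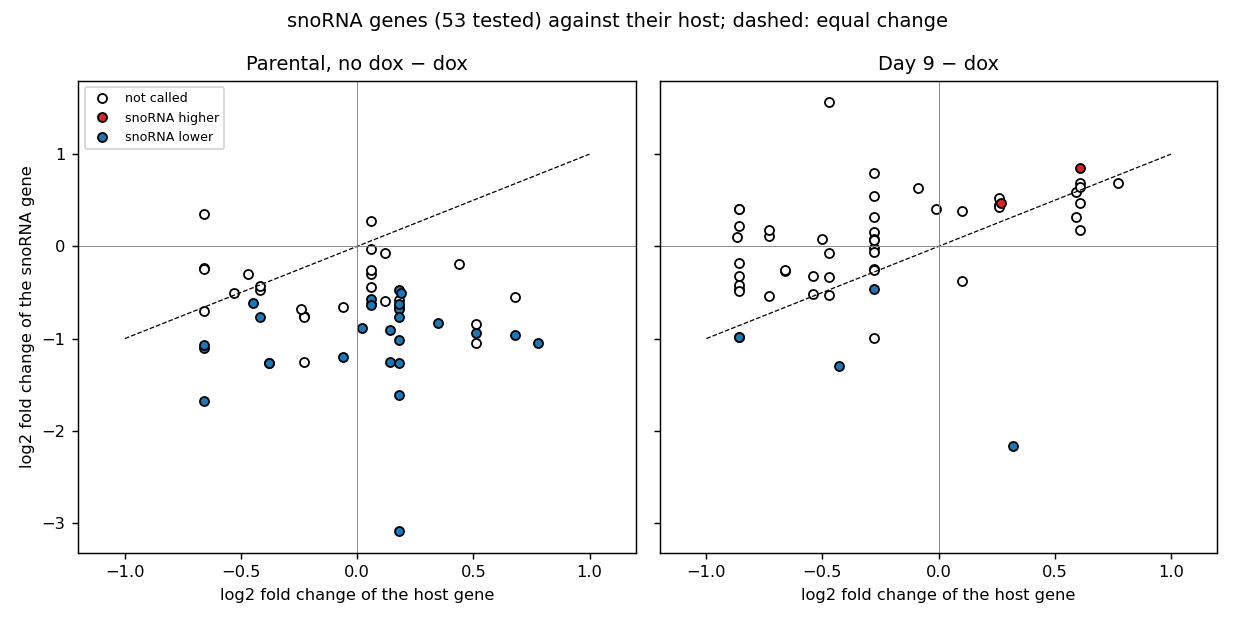
Log2 fold change of each of the 53 tested snoRNA genes (vertical axis) against that of its host (horizontal axis), in the parental line without against with doxycycline and in the deleted line at day 9 against doxycycline. The dashed line marks equal change. In the parental line the points of 18 of 21 hosts have their median below it.

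Genes of the pathways that make and remove these RNAs were counted in the same fits. Of 18 NMD and exon junction complex factors, 14 were higher and 1 lower at day 9, with a median of 0.24. These were 77.8% and 5.56%, against 22.6% and 23.8% of all genes tested. SMG5, which links NMD to RNA cleavage and decay, was at 0.89 (adjusted p = 2.4e-09), DHX34, a helicase of NMD, at 1.21 (adjusted p = 1.8e-08), and the exon junction proteins RBM8A and EIF4A3 at 0.89 (adjusted p = 5.1e-08) and 0.61 (adjusted p = 1.7e-06). NBAS was the one that was lower, at -0.81 (adjusted p = 4.7e-06). At day 6, 4 of the 18 were higher and 5 lower, at day 3, 5 and 1, and in the parental line without doxycycline, 5 and 6. Of all genes tested, 14.0% were higher and 14.0% lower at day 6, and 6.50% and 6.87% at day 3. In the parental line these shares were 21.0% and 18.4%. Of 6 RNAs known as NMD targets, 2 were higher at day 9 by edgeR, or 33.3%, against 22.6% of all genes tested. They were TBL2 at 0.32 (adjusted p = 0.011) and RP9P at 0.40 (adjusted p = 0.046). The others did not pass, with GADD45A at 0.18 (adjusted p = 0.47), GADD45B at -0.12 (adjusted p = 0.4), NAT9 at 0.05 (adjusted p = 0.66) and UPP1 at -0.10 (adjusted p = 0.31).

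RNA of the genes for proteins that bind snoRNAs or assemble them into particles differed in both directions over the days without the drug. At day 6, 11 of 18 were lower (median -0.26), and at day 9, 11 were higher and 1 lower (median 0.24). Of all genes tested, 14.0% were lower at day 6, and 22.6% were higher and 23.8% lower at day 9. NOP56, a core protein of the box C/D particles, was at -0.27 (adjusted p = 0.044) at day 6 and 0.80 (adjusted p = 2e-06) at day 9, and SNU13, which binds the same RNAs first, was at -0.20 (adjusted p = 0.011) and 0.33 (adjusted p = 5.8e-05). NHP2 of the box H/ACA particles was at -0.43 (adjusted p = 2.7e-05) and 0.24 (adjusted p = 0.0016). FBL, the methyltransferase of box C/D particles, was at -0.37 (adjusted p = 0.00044) at day 6 and 0.04 (adjusted p = 0.68) at day 9. In the parental line without doxycycline 11 of the 18 were lower (median -0.25), against 18.4% of all genes tested. At day 6 and in the parental line, 0 were higher by edgeR, by DESeq2 or at an unadjusted p under 0.05.

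Some protein-coding genes of the translation machinery also carry snoRNAs in introns, and they are given here beside ribosomal protein genes that hold none. At day 6, 29 of the 36 coding hosts tested were lower (median -0.33), and 49 of the 55 ribosomal protein genes without a snoRNA (median -0.39). At day 9 the counts were 10 lower and 4 higher (median -0.11) and 11 lower and 2 higher (median -0.08). RPL17, which lies in a readthrough locus that makes its count uncertain, was at -0.79 (adjusted p = 1.7e-05) at day 6, RPSA at -0.47 (adjusted p = 2e-05) and RPS12 at -0.54 (adjusted p = 0.00022). At day 9 EIF4A2 was at -0.89 (adjusted p = 4.1e-06) and RPL13A at -0.54 (adjusted p = 1.7e-06). Of the coding hosts, 80.6% were lower at day 6 and 27.8% at day 9. Of the noncoding hosts, 27.6% were lower at day 6 and 41.4% at day 9, where the shares over all genes tested were 14.0% and 23.8%. Without day 9 replicate 2, 7 noncoding hosts were lower at day 9. With either gene structure trend removed, 4 noncoding hosts were lower at day 6. The coding hosts, the ribosomal protein genes and the other gene lists were not counted in those fits. The difference between the sets was not tested.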

How the data were processed

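The authors deposited raw counts of reads per gene, whole numbers with no normalization, in 3 tables for 18 libraries of 151-bp paired-end RNA-seq, per the file headers. Build GRCh38 and the tools featureCounts (Subread), DESeq2, HISAT2, cutadapt 2.3 and SAMtools come from the submitters' processing notes. The sources used here do not give the annotation release, the strand setting or the handling of overlapping genes. Lines of 16 genes broken in 1 table were rejoined, and the 6 libraries held in 2 tables were identical and taken a single time.

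Genes were kept with filterByExpr by group (21615 genes), scaled with TMM (factors 0.91 to 1.06) and fitted with edgeR 4.0.16 in R 4.3.3, its quasi-likelihood model having 1 mean for each group over all 18 libraries, with 9 comparisons and Benjamini-Hochberg adjustment. The common biological coefficient of variation was 0.12. On simulated day 6 data with 21615 genes, 45% of genes changed by a log2 of 0.5 and 100% of those changed by 1 were recovered. In this simulation few genes were changed, none of them rare, and all genes had the same biological variation. The shares recovered need not hold for the real comparison. Between replicates of a group, the chi-square per gene was at least 4.97, so no library was a copy of another. CPM use TMM-scaled library sizes.

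Host genes were tested in the fit of all genes. snoRNA genes were assigned to hosts by lying within their span on the same strand. Start sequences came from RefSeq. Values by library are given for GAS5, ZFAS1, EPB41L4A-AS1 and the 12 highest host genes by RPKM. They are also given for the 3 with the largest called changes at days 3, 6 and 9 and in the parental line. For some of these genes the text covers only some of the groups. A few further genes got such values after these were seen. List examples were the called genes of smallest adjusted p, with some added for their role. Host genes, lists and tests were chosen with earlier results of these data known. Replicate numbers were taken to pair libraries only between the doxycycline groups of the lines, where same-numbered deviations from the group means correlated at 0.11, 0.17 and 0.19. The alternatives were library-size scaling, no low-count filter, the replicate number as a block, removal of trends with length and span or (chosen after seeing the data) length and GC content, only the libraries compared, DESeq2 1.42.0, and leaving out each library.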

Additional observations from a re-analysis of the deposited data

Results flagged for a closer look

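For 42 tests the change in the deleted line without doxycycline differed from the change in the parental line without it, by edgeR's interaction term at an adjusted p under 0.05. The values that follow are log2 differences, deleted change minus parental change. Their part in a response to the drug itself, as against the loss of SARS2, was not tested, and the sources used here do not give the parental line's time without the drug.

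At day 9, the difference was negative for SNHG25 (-1.65), SNHG22 (-1.60), SNHG18 (-1.55), ZFAS1 (-1.24), SNHG32 (-1.15), GAS5 (-1.05), SNHG19 (-0.86), SNHG3 (-0.80), SNHG29 (-0.66), EPB41L4A-AS1 (-0.53), SNHG21 (-0.50), SNHG6 (-0.47) and SNHG1 (-0.34). It was positive for SNHG9 (1.30), SNHG17 (1.27), SNHG11 (1.25), SNHG20 (0.93), SNHG30 (0.80), SNHG10 (0.76) and SNHG15 (0.72). SNHG21 and EPB41L4A-AS1 were higher in the parental line and had day 9 fold changes of -0.03 and -0.09 in the deleted line.

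At day 6, the difference was negative for SNHG25 (-2.01), SNHG19 (-1.17), ZFAS1 (-0.70), SNHG21 (-0.55) and SNHG29 (-0.53) and positive for SNHG17 (0.73) and SNHG11 (0.63). SNHG25 rests on 107 to 601 counts per library, and its parental libraries without the drug ran from 1.15 to 6.58 CPM.

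At day 3, the difference was negative for SNHG32 (-0.98), SNHG18 (-0.94), ZFAS1 (-0.93), SNHG19 (-0.70), SNHG21 (-0.56), EPB41L4A-AS1 (-0.52) and SNHG6 (-0.32). It was positive for SNHG17 (1.15), SNHG11 (0.96), SNHG12 (0.89), SNHG15 (0.77), SNHG4 (0.74), SNHG10 (0.58), SNHG30 (0.43) and SNHG20 (0.42). ZFAS1, SNHG19, SNHG21, SNHG17 and SNHG11 were flagged at all 3 days, and the 3 tests share the parental libraries and those of the deleted line on doxycycline. Of the 15 calls at day 3, 9 remained when any 1 library was left out, and SNHG19 was not among them. Of the 7 calls at day 6, 5 remained, and SNHG11 was not among them.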

How the results depend on the processing

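Counts of host genes called changed as follows, given as higher or lower with the main count first, by edgeR except where DESeq2 is named. A count within 1.5 times the main count is not listed here. At day 3, higher went from 1 to 2 by library size alone or with the length and span trend removed, 4 with no low-count filter or the length and GC trend removed, 9 with only the libraries compared and 3 with DESeq2, and lower from 2 to 1 with the span trend removed and 6 with only the libraries compared. At day 6, higher went from 1 to 2 with no filter, the span trend removed or only the libraries compared, and 6 with the GC trend removed, and lower from 8 to 5 by library size alone and 4 with either trend removed. At day 9 against day 6, higher went from 9 to 5 with either trend removed, and lower from 8 to 14 by library size alone or with the span trend removed and 15 with the GC trend removed. In the parental line, higher went from 4 to 7 by library size alone or with no filter, 8 with the span trend and 9 with the GC trend removed. Between the lines, higher went from 0 to 1 with no filter or only the libraries compared, and lower from 2 to 6 with no filter, 1 with the span trend removed, 12 with only the libraries compared and 5 with DESeq2. Only the libraries compared with a replicate block, chosen after seeing the data, again gave 1 and 12. With only the libraries compared, 16.5% of all genes were higher and 16.9% lower at day 3, and 18.1% and 19.1% between lines. For the day 6 interaction, higher went from 2 to 1 with only the libraries compared, and lower from 5 to 9 with no filter or only the libraries compared. The day 9 counts stayed within 1.5 times under each setting other than leaving out a library. The cause of these shifts was not tested. With 1 library left out, the ranges were 0 to 1 higher and 0 to 1 lower at day 3, 1 higher and 5 to 7 lower at day 6, 6 to 9 higher and 7 to 12 lower at day 9, 8 to 11 higher and 5 to 13 lower at day 9 against day 6, 3 to 7 higher and 5 to 7 lower in the parental line, 0 higher and 1 to 2 lower between lines, 7 to 9 higher and 3 to 8 lower for the day 3 interaction, 1 to 2 higher and 4 to 9 lower for day 6, and 7 to 10 higher and 10 to 16 lower for day 9. Fold changes that turned sign and had a call in either fit were, at day 6 with the GC trend removed, SNHG1 (0.23), SNHG6 (0.20), SNHG21 (0.22) and SNHG30 (0.08), SNHG30 with the span trend removed (0.01), and at day 9 against day 6 SNHG21 with the span (-0.28) or GC trend (-0.20) removed. Library-size scaling moved the median of all genes by over 0.1 at day 9 against day 6 (-0.02 to -0.15) and in the day 9 interaction (-0.04 to -0.14).

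With the replicate number as a block, 1 host gene was higher for the day 6 interaction and 5 in the parental line, where SNHG18 was at 0.52 (adjusted p = 0.045), and the other counts were the same. Of 45 pairs of same-numbered libraries, 10 had correlated deviations above 0.1 (range -0.36 to 0.22), and no 2 groups had all 3 above it other than the doxycycline groups of the 2 lines, for which the block in the fit of all libraries left 0 higher and 2 lower.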

Other observations

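Of 15 cytoplasmic RNA decay genes, 6 were higher and 4 lower at day 9: EDC4 and EDC3, which enhance decapping, were at 0.80 and 0.49, and the exonuclease XRN1 and the decapping enzyme DCP2 at -0.77 and -0.45. At day 6, 2 were higher and 3 lower, with XRN1 at 0.39. Of 9 regulators of TOP messenger RNAs, 3 were higher and 2 lower at day 9, with the kinase MTOR at 0.51, the TOP-binding protein LARP1 at 0.28 and the cap-binding protein EIF4E at -0.23, and 1 was higher and 1 lower at day 6. Of 21 translation initiation and elongation genes, 9 were lower and 0 higher at day 6 by edgeR (0 higher also with DESeq2 or at an unadjusted p under 0.05) and 7 were higher and 3 lower at day 9, with the scaffold protein EIF4G1 at -0.33 and 0.67. Among 288 other protein-coding genes that hold a snoRNA, 83 were lower and 64 higher at day 9, or 28.8% and 22.2%, and 45 lower and 60 higher at day 6. At day 9, 40% of the decay genes were higher and 26.7% lower. For the TOP regulators these shares were 33.3% and 22.2%, and for the translation genes 33.3% and 14.3%. Of all genes tested, 22.6% were higher and 23.8% lower at day 9, and 14.0% and 14.0% at day 6.

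MALAT1, the other nuclear RNA counted beside NEAT1, had 761 ± 25.9 CPM with doxycycline and 1149 ± 119 CPM without it in the parental line, and 1170 ± 60.1, 932 ± 35.3, 1274 ± 153 and 1107 ± 311 CPM on doxycycline and at days 3, 6 and 9 in the deleted line (SD, n = 3). Summed mesenchymal markers ran from 867 to 941 CPM on doxycycline and 957 to 1262 CPM at day 9 in the deleted line, and summed epithelial markers from 38.8 to 43 CPM and 60.5 to 69.5 CPM. Summed markers of blood cells ran from 28.6 to 33.5 CPM and 17.3 to 26.6 CPM. Each sum is led by a few genes. At day 9, VIM (0.44) and CDH2 (0.35) were higher and ZEB1 (-0.94), ZEB2 (-0.54) and COL1A1 (-0.42) lower. KRT18 (0.81) was higher and CLDN4 (-2.25) lower, with a median of -0.15 over the 5 epithelial markers tested. CD34 (2.65) and CD33 (2.14) were higher from at most 44 counts in a library, and KIT (-0.99) was lower. The part of these markers in the host gene results was not tested.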
